A study of Mus musculus with 6 samples.

Results

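The transcripts of 10 genes for thrombospondins and other matricellular glycoproteins were followed in primary mouse embryonic fibroblasts (pMEFs) labelled HAT1 WT and HAT1 KO. The genes were Thbs1, Thbs2, Thbs3, Tnc, Postn, Spp1, Sparc, Fn1, Fbln1 and Fbln2, out of 17512 genes in the table. They were chosen by gene symbol when results from these same libraries were already known, so their genotype differences are given as a description and carry no test. HAT1 adds acetyl groups to new histone H4 before its assembly into chromatin, and the study compared RNA of the genotypes to learn whether lost chromatin accessibility goes with lost transcription. The cells came from 6 lines on the C57bl6 strain background, grown in the same serum-containing medium, with no further treatment named. The HAT1 WT lines were numbered 36, 47 and 78, and the HAT1 KO lines were numbered 33, 41 and 72. Each line gave 1 library. Lines were grown from mid-gestation embryos after the internal organs had been taken out, and no cloning of single cells is named. The labels do not state that the lines came from separate embryos, and every error given here measures the spread between these lines.

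Matricellular proteins are secreted into the extracellular matrix, where they mainly tell cells how to adhere, migrate and respond to growth factors rather than bearing load. Many are made in large amounts during development and wound repair, and fibroblasts are a main source. Thrombospondins bind calcium, collagen, growth factors and the receptors CD36 and CD47. Tenascin-C, periostin and osteopontin engage integrins, SPARC binds collagen, fibronectin forms the fibrils on which cells spread, and fibulins link elastic fibres and basement membranes.

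Upstream sequences are shown for genes picked by their values in these libraries. Thbs2 and Tnc were the only members of the 10 with every HAT1 KO line below every HAT1 WT line, as in 12.4% of all genes tested below. Spp1 was the member that varied most between lines. The 250 bases before a RefSeq start (for Tnc the second and for Spp1 the first of 2 listed) are printed 5′ to 3′ in the direction of transcription, from GRCm38.p6, and capitals mark matches to the motifs searched. Thbs2 is on the minus strand at chr17:14694263-14694512, Tnc on the minus strand at chr4:64046937-64047186, and Spp1 on the plus strand at chr5:104434861-104435110.
Thbs2: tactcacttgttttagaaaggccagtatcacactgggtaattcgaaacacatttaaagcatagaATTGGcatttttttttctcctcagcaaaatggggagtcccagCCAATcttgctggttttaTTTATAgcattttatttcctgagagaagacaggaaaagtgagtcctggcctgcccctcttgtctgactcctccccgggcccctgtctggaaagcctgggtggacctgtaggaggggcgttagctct
Tnc: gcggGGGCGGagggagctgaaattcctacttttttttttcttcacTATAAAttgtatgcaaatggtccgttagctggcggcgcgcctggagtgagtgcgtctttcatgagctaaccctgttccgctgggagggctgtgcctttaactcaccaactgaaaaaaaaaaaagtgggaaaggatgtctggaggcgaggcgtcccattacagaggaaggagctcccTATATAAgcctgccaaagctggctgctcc
Spp1: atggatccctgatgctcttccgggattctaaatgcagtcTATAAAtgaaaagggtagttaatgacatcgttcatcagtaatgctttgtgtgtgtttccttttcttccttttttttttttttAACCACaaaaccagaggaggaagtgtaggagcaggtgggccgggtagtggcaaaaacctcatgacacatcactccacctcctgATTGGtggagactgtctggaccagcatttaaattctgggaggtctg
For the TATA box the letters sought were TATAAA, and as the other form TATATAA, on both strands as for every motif. The box bound by NF-Y was sought as CCAAT, and the one bound by SP1 proteins, called the GC box, as GGGCGG. RUNX proteins were represented by their core AACCAC and TEAD proteins by the letters CATTCC. The AP-1 site was sought as TGAGTCA, whose reverse complement is TGACTCA. None of these strings contains another. The Thbs2 window held a CCAAT match 144 bases before the start and its reverse complement ATTGG at 186 bases, beside a reversed TATA match, TTTATA, at 126 bases. The Tnc window held TATATAA 29 bases before the start, TATAAA at 205 bases and GGGCGG at 246 bases. The Spp1 window held ATTGG 46 bases before the start, AACCAC at 129 bases and TATAAA at 211 bases. At the Spp1 start that is not printed, the window held no match to any of the motifs. At the Tnc start that is not printed, it held TATA box and GC box matches.
Over 32851 RefSeq promoter windows of the same length, 13.8% held a TATA match, 33.9% a CCAAT match, 32.7% a GC box match and 10.8% a RUNX match. AP-1 matches were in 4.46% and TEAD matches in 12.6% of the windows, and in none of the 12 windows of the 8 members with an entry. Thbs1 and Fn1 were not among the entries. A match is a string of letters and not evidence of binding.

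The libraries held between 67720628 and 98786746 counts. Levels are CPM, a count divided by its library's size on a common scale, after TMM scaling (trimmed mean of M-values), and log2 fold changes are HAT1 KO minus HAT1 WT from an edgeR quasi-likelihood fit over the 14773 genes that passed a filter on low counts, which all 10 members did. Hat1 itself gave 17.4, 23.0 and 20.1 CPM over the WT lines (36, 47 and 78 in that order) and 10.2, 10.0 and 10.3 CPM over the KO lines (33, 41 and 72). It was thus lower in every library labelled HAT1 KO and was not absent from them. The 10 fibroblast markers, led by Col1a1, summed to 60874.4 to 68798.2 CPM in WT and 46359.7 to 78365.0 CPM in KO, where KO line 72 was lowest. Of these markers 6 had a lower and 4 a higher KO mean. Col1a1, Col1a2, Col3a1, Pdgfra, Thy1 and Dcn were lowest in KO line 72. Vim and S100a4 were highest there, at 4494.3 and 11.2 CPM, and Pdgfrb and Lum lay between. Endothelial markers summed to 148.2 to 190.6 CPM in WT and 49.1 to 142.8 CPM in KO, and cartilage and bone markers to 54.8 to 190.7 CPM and 84.1 to 108.3 CPM. Flt1 gave most of the endothelial sum, at 135.4 to 177.4 CPM in WT and 33.9 to 129.9 CPM in KO. Of 6 tested endothelial markers 4 had a lower and 2 a higher KO mean. Of 7 tested cartilage and bone markers 1 had a lower and 6 a higher KO mean. KO line 72 stood apart. Its log2 CPM differed from the mean of the other 5 lines by a root mean square of 0.83 over the tested genes, against 0.42 to 0.54 for the others, so the fold change of each of the 10 genes is given with and without it. High counts of Y-linked genes were found in WT lines 36 and 47 alone. Raw counts of Xist were 94 and 1179 in those lines, 29520 in WT line 78 and 11233 to 13722 in the KO lines. Genotype was thus partly confounded with these counts. Sequencing lanes were unevenly spread, with WT line 47 and KO lines 33 and 72 in lane 6, WT line 78 and KO line 41 in lane 7, and WT line 36 in lane 8. Summed markers of blood and myeloid cells were 4921.0 to 5327.0 CPM in the WT lines and 2438.1 to 2928.5 CPM in the KO lines. Of the 12 markers 12 had a lower KO mean and 8 passed the adjusted threshold (5 without KO line 72 and 0 with the lane in the model, where 10 had an unadjusted p-value under 0.05), while Lyz2, the most abundant, was at 2937.7 CPM in WT and 1462.0 CPM in KO. Smooth muscle and myofibroblast markers summed to 4945.7 to 6175.5 CPM in WT and 6553.0 to 7941.2 CPM in KO, with 7 of 8 higher, and proliferation markers to 514.7 to 766.7 CPM and 798.8 to 1057.9 CPM, with 12 of 12 higher. None of these markers was at 0 in every library. Their part in the values below was not tested, and in bulk RNA fewer cells of a type and less RNA per cell cannot be told apart.

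Together the 10 genes took 5.87%, 5.38% and 5.72% of all counts in WT lines 36, 47 and 78 and 4.93%, 5.01% and 5.90% in KO lines 33, 41 and 72. The 2 KO lines other than line 72 thus lay below the WT lines, and KO line 72 lay above them. No member had an adjusted p-value under 0.05 in edgeR, where 0.528% of the tested genes did. Thbs2 and Tnc were the 2 members with an unadjusted p-value under 0.05, beside 14.6% of all tested genes. The same 2 members were the ones at least 1.5-fold lower at that unadjusted threshold, beside 4.62% of all genes, and 0 members were 1.5-fold higher, beside 1.5%. They were also the 2 members with all KO lines below all WT lines, beside 12.4% of all genes. The DESeq2 Wald test gave both an adjusted p-value under 0.05, beside 6.56% of the genes it adjusted, and voom with sample quality weights gave 0 members, beside 1.81%. Since the genotype comparison was known when the genes were chosen, nothing is read from these counts. The median log2 fold change was -0.11 over the 10 members and 0.0085 over all tested genes, with 6 members lower and 4 higher.

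**Figure D1:**
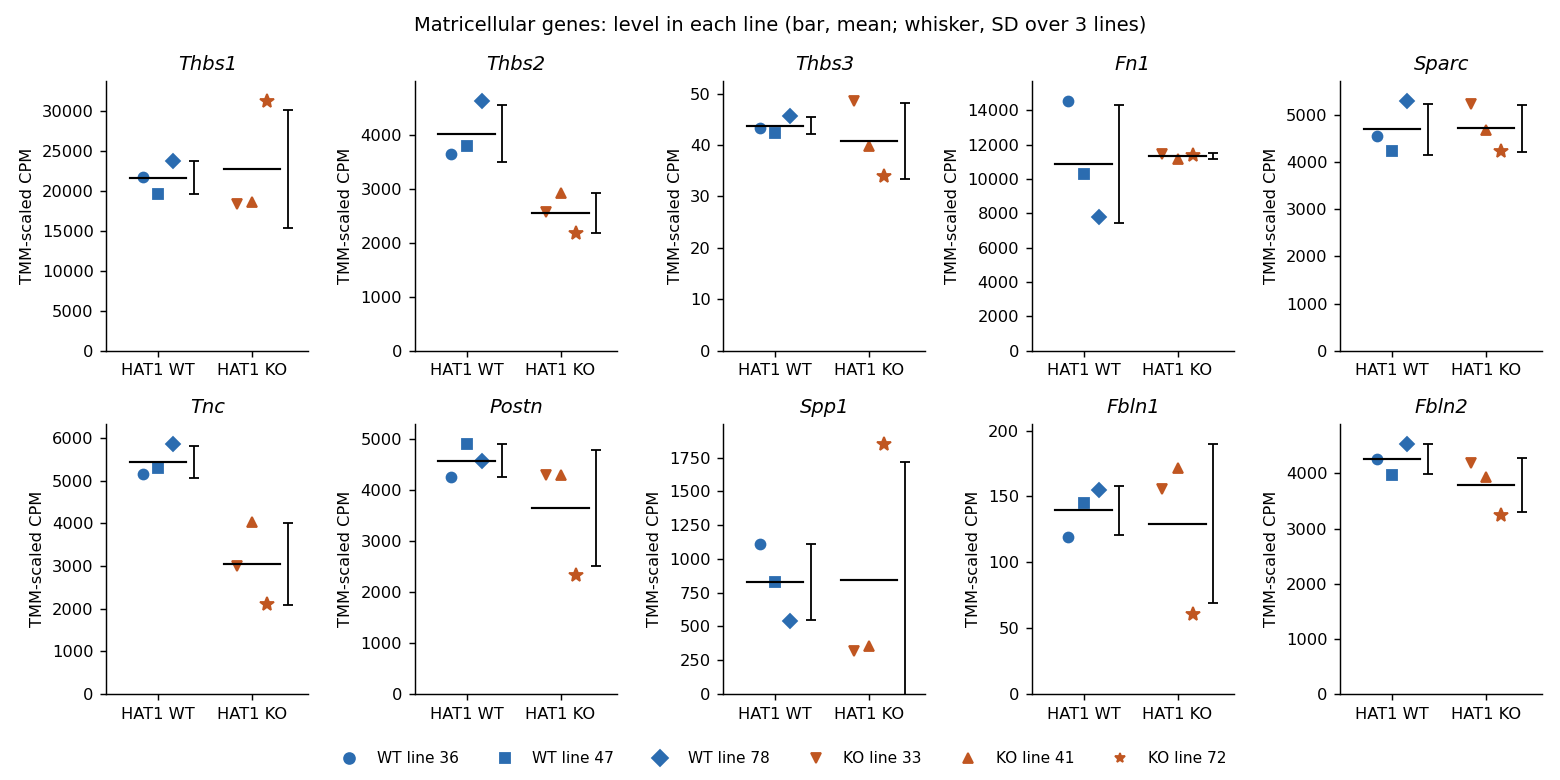
Level of each of the 10 genes in TMM-scaled CPM (linear axis from 0, separate for each gene) in HAT1 WT and HAT1 KO lines, with 1 symbol per line, a bar at the mean and a whisker for the SD over 3 lines, cut at 0 for Spp1. The WT and KO symbols are apart for Thbs2 and Tnc and overlap for the other 8 genes, and the star of KO line 72 is the highest point for Thbs1 and Spp1 and the lowest for Thbs2, Thbs3, Tnc, Postn, Fbln1 and Fbln2.

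Thbs2 codes for thrombospondin-2, which regulates collagen fibril assembly and restrains new vessel growth. It lies on chromosome 17 of GRCm38, from 14665500 to 14694235 on the minus strand. Lines 36, 47 and 78 of WT stood at 3632.2, 3795.4 and 4620.4 CPM, while lines 33, 41 and 72 of KO stood at 2562.3, 2911.7 and 2178.3 CPM. All KO lines were below all WT lines, and KO line 72 was the lowest. The means were 4016 ± 530 CPM in WT and 2551 ± 367 CPM in KO (SD, n = 3 each), which put KO at 63.5% of WT. On the log2 scale KO differed by -0.66 (SE 0.15) with all lines and -0.54 (SE 0.14) without KO line 72. Within lane 6 the log2 difference from WT line 47 was -0.57 for KO line 33 and -0.80 for KO line 72, and within lane 7 KO line 41 differed from WT line 78 by -0.67. With only WT line 78 and the KO lines, all of which had low Y-linked counts, the log2 fold change was -0.84. Each of these comparisons rests on a single WT line, and WT line 78 had the highest Thbs2 level of all. Summed myeloid markers were also lower in every KO line, and a link to Thbs2 was not tested.

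Tnc codes for tenascin-C, a hexameric glycoprotein of embryonic and wounded mesenchyme that loosens cell adhesion to fibronectin. It occupies positions 63959785 to 64047015 of chromosome 4, on the minus strand. Over WT lines 36, 47 and 78 the level was 5154.0, 5299.0 and 5858.3 CPM, against 2995.1, 4022.9 and 2102.0 CPM over KO lines 33, 41 and 72. The WT lines were close to each other, with a highest-to-lowest ratio of 1.14, while the KO lines were spread over a ratio of 1.91 and all lay below the WT lines. The means were 5437 ± 372 CPM in WT and 3040.0 ± 961 CPM in KO (SD, n = 3 each), a KO level of 55.9% of WT. This was a log2 fold change of -0.84 (SE 0.24), and -0.62 (SE 0.15) without KO line 72. Within lane 6 the log2 differences were -0.82 for KO line 33 and -1.33 for KO line 72, and within lane 7 the difference was -0.54. Among the lines of low Y-linked counts it was -0.93, again with WT line 78 alone as WT. Tnc and Thbs2 therefore had the same order of KO lines, with line 41 highest and line 72 lowest. A long non-coding gene, 8030451A03Rik, overlaps Tnc on the opposite strand, and since strand use in counting was not given, reads of the pair cannot be told apart.

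Thbs1 codes for thrombospondin-1, a platelet and fibroblast protein that activates latent TGF-beta and inhibits angiogenesis. The gene is on the plus strand of chromosome 2 between 118111876 and 118127133, and its mean level was the second of all 17512 genes. WT lines 36, 47 and 78 gave 21732.2, 19568.2 and 23716.6 CPM, and KO lines 33, 41 and 72 gave 18335.6, 18623.0 and 31272.3 CPM. KO lines 33 and 41 were lower than every WT line and KO line 72 was higher than all of them. Thbs1 took 1.98% to 2.38% of all counts in the WT lines, 1.82% and 1.86% in KO lines 33 and 41, and 3.14% in KO line 72. It held place 1 among all genes in KO line 72, place 3 in KO line 33 and place 2 elsewhere. The means of 21672 ± 2075 and 22744 ± 7387 CPM (SD, n = 3 each) differed by less than the spread, with a log2 fold change of 0.07 (SE 0.24). Without KO line 72 the sign turned, to -0.22 (SE 0.12). A lincRNA gene, Gm29233, overlaps Thbs1 on the opposite strand.

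Thbs3, the thrombospondin of the pentameric group in the set, was the least expressed of the 10. It lies on chromosome 3 from 89215180 to 89226837 on the plus strand and overlaps Mtx1 on the opposite strand, which leaves its count uncertain. Lines 36, 47 and 78 of WT stood at 43.4, 42.3 and 45.7 CPM, while lines 33, 41 and 72 of KO stood at 48.6, 39.9 and 34.0 CPM. The KO lines enclosed the WT lines. Its log2 fold change was -0.10 (SE 0.13), and 0.03 (SE 0.10) without KO line 72. The remaining family members Thbs4 and Comp, both of the pentameric group, were near the limit of detection at 1.27 ± 0.879 and 0.877 ± 0.734 CPM in WT. In KO they were at 1.30 ± 0.268 and 3.06 ± 4.54 CPM, and KO line 72 alone, at 8.30 CPM, set the KO mean of Comp.

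Spp1 codes for osteopontin, a phosphorylated, integrin-binding glycoprotein made by bone cells, macrophages and activated fibroblasts. The gene runs from 104435118 to 104441050 on the plus strand of chromosome 5 and shares bases with Gm42793 on the same strand. Over WT lines 36, 47 and 78 the level was 1107.4, 832.4 and 542.6 CPM, against 320.8, 353.2 and 1849.4 CPM over KO lines 33, 41 and 72. KO lines 33 and 41 were below every WT line, whereas KO line 72 was above every WT line and was 5.49 times the mean of the other KO lines. The means were 827 ± 282 CPM in WT and 841 ± 873 CPM in KO (SD, n = 3 each). The log2 fold change was 0.02 (SE 0.72) with all lines and -1.28 (SE 0.29) without KO line 72, so a single library decided its value. Within lane 6 the log2 differences had opposite signs, -1.38 for KO line 33 and 1.15 for KO line 72, and within lane 7 the difference was -0.62. The myeloid marker sum was lower in every KO line than in any WT line and lowest in KO line 72, at 2438.1 CPM. A link between this sum and Spp1 was not tested. Its relative Dmp1, a bone matrix protein, was at 0.260 ± 0.215 CPM in WT and 0.808 ± 0.934 CPM in KO, Ibsp and Dspp had too few counts to be tested, and Mepe was not analysed here.

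**Figure D2:**
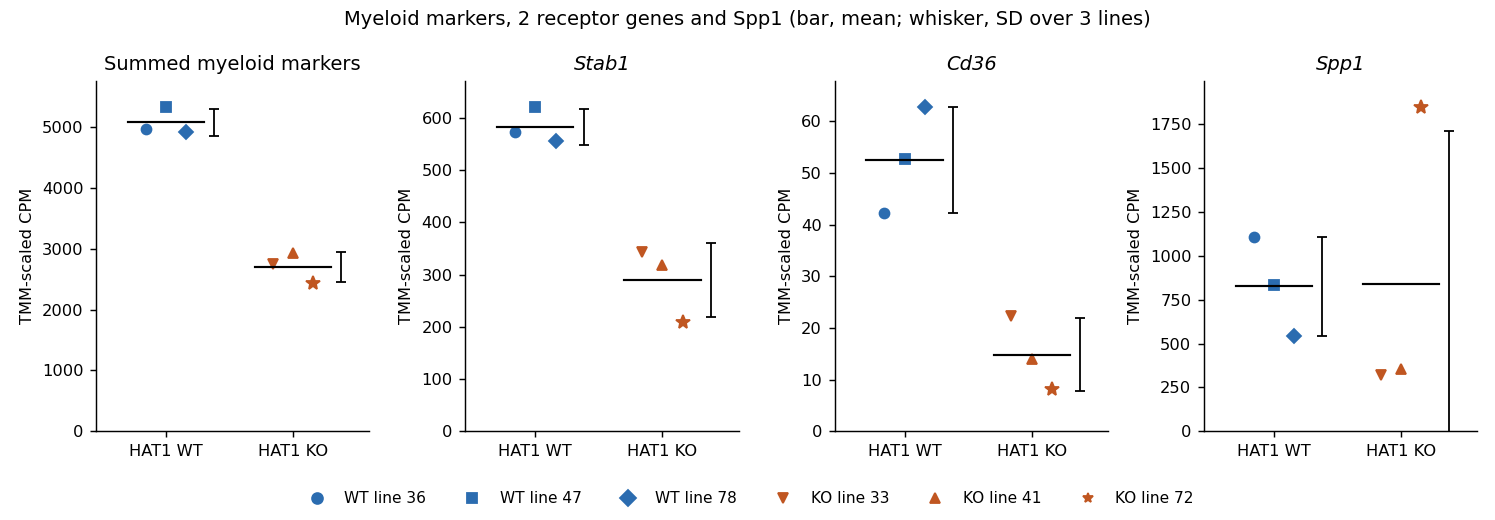
Summed level of 12 blood and myeloid markers, and the levels of Stab1, Cd36 and Spp1, in TMM-scaled CPM (linear axes from 0) for each line, with a bar at the mean and a whisker for the SD over 3 lines, cut at 0 for Spp1. KO line 72 is the lowest point for the marker sum, Stab1 and Cd36 and the highest for Spp1.

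Postn codes for periostin, which joins tenascin-C and collagen in the matrix of periosteum, tendon and heart valves. It is found on chromosome 3 from 54361109 to 54391037 on the plus strand. WT lines 36, 47 and 78 gave 4252.1, 4889.3 and 4564.3 CPM, and KO lines 33, 41 and 72 gave 4291.2, 4293.8 and 2331.3 CPM. KO lines 33 and 41 lay within the WT range, and KO line 72 was at 0.543 times their mean. KO differed from WT by -0.33 on the log2 scale (SE 0.24), and -0.08 (SE 0.09) without KO line 72. The related Tgfbi, which shares the fasciclin domains of periostin, was at 189 ± 57.3 CPM in WT and 131 ± 33.5 CPM in KO, with a log2 fold change of -0.53 (SE 0.26), or -0.44 without KO line 72.

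Both fibulins of the set were lowest in KO line 72, and they differed in level and in how KO lines 33 and 41 stood against the WT lines. Fbln1, a component of basement membranes and vessel walls, lies on chromosome 15 from 85205949 to 85286535 on the plus strand. Lines 36, 47 and 78 of WT stood at 119.0, 144.7 and 155.1 CPM, while lines 33, 41 and 72 of KO stood at 155.9, 171.9 and 60.5 CPM. KO lines 33 and 41 were above every WT line and KO line 72 was below every WT line, at 0.369 times the mean of the other KO lines. The log2 fold change was -0.11 (SE 0.37), and turned to 0.24 (SE 0.13) without KO line 72. Fbln2, which binds fibronectin and elastic fibres, lies on chromosome 6 from 91212455 to 91272540 on the plus strand. Over WT lines 36, 47 and 78 the level was 4261.9, 3978.6 and 4528.1 CPM, against 4190.1, 3927.6 and 3242.5 CPM over KO lines 33, 41 and 72, so KO lines 41 and 72 were below the WT range and KO line 33 was inside it. Its log2 fold change was -0.17 (SE 0.13), and -0.06 (SE 0.09) without KO line 72.

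Sparc, whose product SPARC (osteonectin) chaperones collagen into the matrix, had the smallest genotype difference of the members. It lies on chromosome 11 from 55394500 to 55423183 on the minus strand. WT lines 36, 47 and 78 gave 4561.4, 4236.0 and 5292.6 CPM, and KO lines 33, 41 and 72 gave 5231.2, 4672.2 and 4240.5 CPM. The KO range lay inside the WT range, and the log2 fold change was 0.005 (SE 0.13), and 0.09 (SE 0.12) without KO line 72.

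Fn1, the gene of fibronectin, was the member whose WT lines were most spread relative to its KO lines. It covers 71585520 to 71653200 of chromosome 1 on the minus strand, where the antisense gene Apol7d overlaps it. Lines 36, 47 and 78 of WT stood at 14548.8, 10305.1 and 7782.4 CPM, while lines 33, 41 and 72 of KO stood at 11453.1, 11141.4 and 11390.0 CPM. The WT lines ran over a ratio of 1.87 and the KO lines over 1.03, and the KO values lay within the WT range. Its log2 fold change was 0.06 (SE 0.23), and 0.07 (SE 0.25) without KO line 72. The WT lines decided this value. It was 0.33 without WT line 36, -0.13 without WT line 78, 0.31 with the lane in the model and 0.56 with only the lines of low Y-linked counts, which leave WT line 78 as the lone WT line. In Fn1 KO line 72 was at 1.01 times the mean of the other KO lines, unlike in Thbs1, Spp1, Postn and Fbln1.

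**Figure D3:**
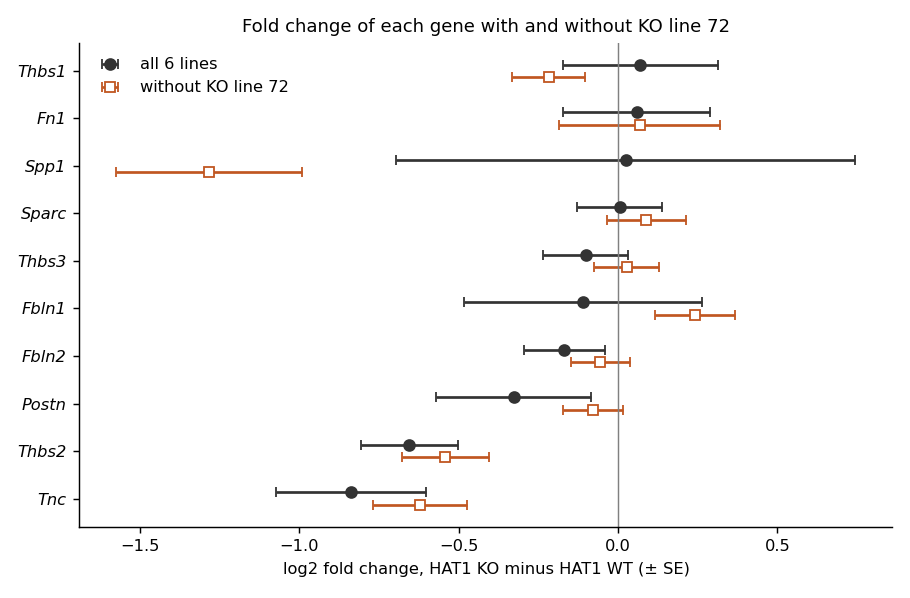
Log2 fold change of each gene, HAT1 KO minus HAT1 WT, with its SE, from the fit of all 6 lines (filled circles) and without KO line 72 (open squares). Thbs2 and Tnc stay at -0.54 or lower in both fits, while Spp1 moves from 0.02 to -1.28.

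Spread between lines of the same genotype differed widely among the members. The median SD of log2 CPM within a genotype was 0.32 over the 10 members, 0.18 over all 14773 tested genes, and 0.12 over the 2011 genes with a mean of at least 100 CPM. Among the members this SD ran from 0.15 for Fbln2 and 0.16 for Sparc to 0.61 for Fbln1 and 1.07 for Spp1. The choice of the members used the same libraries, so this contrast is a description.

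Levels of different genes were compared per kilobase (kb) of merged exon. In WT, Thbs1 led with 3569 ± 342 CPM per kb, followed by Sparc at 1239.9 ± 143 and Fn1 at 931 ± 293 CPM per kb (SD, n = 3 each). Next were Tnc at 700 ± 47.9 and Fbln2 at 668 ± 43.1 CPM per kb. The spread of Fn1 reached up to Sparc and down to Tnc, and Tnc and Fbln2 lay within their spread of each other. Thbs2 at 574 ± 75.6, Postn at 525 ± 36.6 and Spp1 at 502 ± 171 CPM per kb followed and could not be ordered either, nor was Thbs2 apart from Fbln2. Fbln1 at 32.0 ± 4.25 and Thbs3 at 9.08 ± 0.356 CPM per kb were far below. In KO, Thbs1, Sparc and Fn1 kept the top 3 places, at 3745 ± 1216, 1245 ± 131 and 969 ± 14.1 CPM per kb. Fbln2 was next at 594 ± 76.8 CPM per kb. Tnc went from place 4 to place 7, at 391 ± 124 CPM per kb, and Thbs2 from place 6 to place 8, at 364 ± 52.4 CPM per kb, although in KO their spreads overlapped those of Postn at 418 ± 130 and Spp1 at 510 ± 530 CPM per kb.

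Ratios within a library do not depend on how libraries are scaled to each other. The Thbs1 to Thbs2 ratio of counts per kb was 6.90, 5.95 and 5.92 in WT lines 36, 47 and 78 and 8.25, 7.38 and 16.6 in KO lines 33, 41 and 72. The Thbs1 to Tnc ratio was 5.40, 4.73 and 5.18 in WT, and 7.83, 5.92 and 19.0 in the KO lines. Both ratios were higher in every KO line than in any WT line, most so in KO line 72. Set against Sparc, the member with the smallest fold change, Tnc stood at 0.551, 0.610 and 0.539 in WT, and at 0.279, 0.420 and 0.242 in the KO lines. Thbs2 relative to Sparc was 0.431, 0.485 and 0.472 in WT, and 0.265, 0.337 and 0.278 in the KO lines, again with no overlap. Thbs2 and Tnc were taken for their separation between genotypes and Sparc for its small fold change. The lack of overlap in these ratios is therefore a description and adds no support. Spp1 relative to Sparc was 0.558, 0.452 and 0.236 in WT, and 0.141, 0.174 and 1.00 in the KO lines. That ratio placed KO lines 33 and 41 below and KO line 72 above all WT lines.

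**Figure D4:**
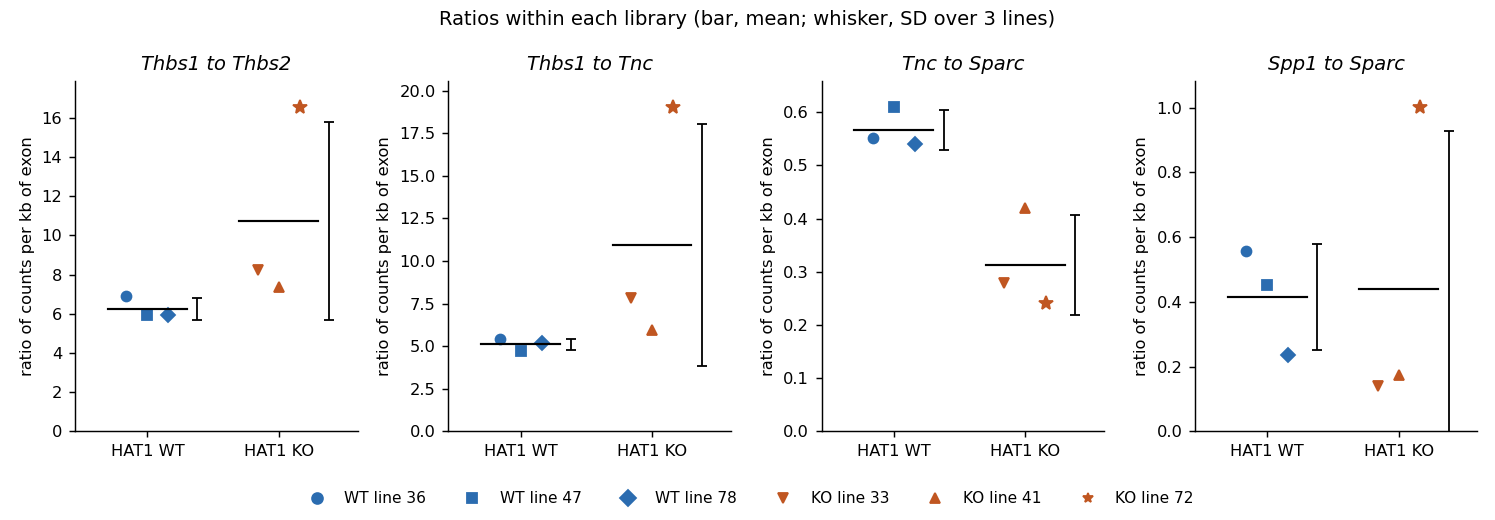
Ratios of counts per kb of exon within each library (linear axes from 0), with 1 symbol per line, a bar at the mean and a whisker for the SD over 3 lines, cut at 0 for Spp1 to Sparc. The Thbs1 to Thbs2 and Thbs1 to Tnc ratios are higher, and the Tnc to Sparc ratio lower, in all KO lines than in any WT line, while Spp1 to Sparc is highest in KO line 72.

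Genes of like profile over the 6 libraries were sought for each member by the root mean square difference of log2 CPM after centring each gene, over all tested genes. This is a description of 6 points and shows no shared control. The genes nearest to Thbs2 were Atp1b1 (0.07), Dock10 (0.07) and N4bp2l1 (0.07), against a spread of Thbs2 itself of 0.37. Those nearest to Tnc were Arhgap18 (0.08), Capn6 (0.10) and Slc1a2 (0.11), against 0.52. For Thbs1 they were Mterf1b, Rasa2 and Rab3a, for Postn Slco2a1, Arntl and Arap1, and for Fbln1 Gpr63, Mfap2 and Dclk2. For Spp1 the nearest were Cda (0.23), Cdh17 (0.30) and Grpr (0.30), at larger differences than the 3 nearest genes of any other member. Several of these genes were weakly expressed, such as Cda at 0.398 CPM and Mterf1b at 0.358 CPM on average. For Thbs3 they were Tpcn1, Ppp1r3d and E2f5, for Fn1 Rpl14-ps1, Pitpnm3 and Hk2, for Sparc Wdsub1, Zfp46 and Dusp11, and for Fbln2 Adal, Zfp384 and Fra10ac1. Among pairs of members Thbs3 and Fbln2 were closest (0.07), Thbs2 and Tnc differed by 0.20, and Spp1 and Fbln1 were farthest apart (1.36).

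The wider families were examined through lists of relatives. Of 50 relatives 44 were tested, and 0 passed an adjusted p-value of 0.05 in edgeR in either direction, beside 0.528% of all genes. At an unadjusted p-value under 0.05, 2 were higher and 1 lower, beside 14.6% of all genes in both directions together. DESeq2 called 1 relative (Matn4), beside 6.56% of all genes, and voom 0, beside 1.81%. The median log2 fold change of the relatives was 0.17, against 0.0085 over all genes, and it fell to 0.03 without KO line 72. In that fit edgeR called 1 relative, the microfibril-associated gene Mfap4, among 73 genes in all. With all lines the higher ones were Matn4, a matrilin gene (0.74, SE 0.22), and Vwa1 (0.98, SE 0.37). Both were weakly expressed, with means of 1.71 CPM in WT and 2.87 CPM in KO for Matn4, and 0.466 and 0.918 CPM for Vwa1. The lower one was Spock1, a SPARC-related proteoglycan that was under 1 CPM in every line (-2.18, SE 0.67). Npnt, an integrin ligand, was next by p-value (0.52, SE 0.24). Without KO line 72 these were 0.61 for Matn4, 0.78 for Vwa1, -1.70 for Spock1 and 0.23 for Npnt.

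Among the tenascins, Tnn (tenascin-N) was at 63.0, 28.4 and 58.4 CPM in the WT lines and at 36.6, 40.8 and 308 CPM in KO lines 33, 41 and 72. KO line 72 alone was outside the WT range, and the log2 fold change went from 1.36 (SE 0.89) to -0.36 without it. Tnxb had a log2 fold change of -0.07, or 0.36 without KO line 72, and Tnr was too low to be tested, so Tnc was the only tenascin with all KO lines below all WT lines. In the SPARC family the log2 fold changes were 0.57 for Sparcl1 (SE 0.497), -1.41 for Smoc1 (SE 0.963) and 1.09 for Smoc2 (SE 0.676). They were 0.53 for Spock2 (SE 0.605), -1.84 for Spock3 (SE 0.902) and -0.05 for Fstl1 (SE 0.124). Without KO line 72 they were 0.92, -0.91, 0.02, -0.46, -1.83 and 0.05 in the same order, so Spock2 and Fstl1 took the other sign. Smoc2 was at 38.1, 97.9 and 294.6 CPM in KO lines 33, 41 and 72 against 62.2 to 77.7 CPM in WT. Spock3 was low, at 3.39, 3.23 and 0.303 CPM in WT lines 36, 47 and 78 and at 0.292 to 1.01 CPM in KO. The 6 other fibulins had higher means in KO with all lines and 4 of 6 did without KO line 72, where Fbln5 and Fbln7 turned lower. At an adjusted p-value of 0.05 the count was 0 in edgeR, DESeq2 and voom, and at an unadjusted p-value under 0.05 it was 0 in edgeR. Hmcn2 was low, at a mean of 0.464 CPM in WT and 0.662 CPM in KO. With all lines the log2 fold changes of these fibulins were 0.52 for Efemp1 (SE 0.435), 0.35 for Efemp2 (SE 0.174) and 0.04 for Fbln5 (SE 0.222). They were 0.66 for Fbln7 (SE 0.927), 1.21 for Hmcn1 (SE 0.775) and 0.51 for Hmcn2 (SE 0.37). Without KO line 72 the values were 0.86, 0.14, -0.12, -1.18 (Fbln7), 0.14 and 0.25 in the same order. In the CCN family of small secreted regulators, which includes CYR61 (Ccn1) and CTGF (Ccn2), 0 of 5 tested genes passed the adjusted threshold in edgeR, DESeq2 or voom, or the unadjusted one in edgeR. Ccn6 had too few counts. The log2 fold changes of the tested CCN genes were 0.03 for Ccn1 (SE 0.156), 0.27 for Ccn2 (SE 0.215) and -0.25 for Ccn3 (SE 0.602). They were 0.21 for Ccn4 (SE 0.306) and 0.81 for Ccn5 (SE 0.425). Without KO line 72 they were -0.16, 0.006, 0.20, 0.49 and 0.18 in the same order, so Ccn1 and Ccn3 took the other sign. In that fit 1 CCN gene was higher at an unadjusted p-value under 0.05, where 2786 of all genes passed in either direction.

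Receptors that bind these proteins formed a further list. Of 19 tested, 0 passed the adjusted threshold in edgeR, 6 were lower and 0 higher at an unadjusted p-value under 0.05 (14.6% of all genes, both directions together), and the median log2 fold change was -0.14. DESeq2 called 4 (Cd36, Itgav, Lrp1 and Stab1), beside 6.56% of all genes, and voom 2 (Cd36 and Stab1), beside 1.81%, all of them lower. Without KO line 72 edgeR called 1, Stab1, among 73 genes in all. At the unadjusted threshold 7 receptors were then lower, and 3 with the lane in the model. Over all genes the counts at that threshold, in both directions, were 2164 in the main fit, 2786 without KO line 72 and 931 with the lane. Stab1, a scavenger receptor that takes up SPARC, was at 583 ± 34.0 CPM in WT and 290.0 ± 70.5 CPM in KO (SD, n = 3 each). It differed by -1.01 on the log2 scale (SE 0.19, adjusted p-value 0.0949 in edgeR). Cd36, a receptor of thrombospondin-1 and -2, was at 52.5 ± 10.3 CPM in WT and 14.9 ± 7.11 CPM in KO, and it differed by -1.82 (SE 0.37, adjusted p-value 0.113 in edgeR). Lrp1, which clears thrombospondins from the matrix, was at 4279 ± 257 CPM in WT and 3303 ± 267 CPM in KO, and it differed by -0.37 (SE 0.11, adjusted p-value 0.205 in edgeR). For all 3 genes every KO line was below every WT line, as for 12.4% of all tested genes. They were the genes of smallest p-value in the list, so this separation is a description. Stab1 and Cd36 are also expressed by macrophages, and the myeloid marker sum was lower in the same lines. Whether these go together was not tested. The other 3 were the integrin subunit genes Itgav (-0.22, SE 0.07) and Itga9 (-0.52, SE 0.17), and Cd47 (-0.21, SE 0.08), where edgeR gave no adjusted p-value under 0.05. Their KO lines were all below their WT lines too. These 6 had negative log2 fold changes without KO line 72 too, from -1.52 for Cd36 to -0.20 for Itgav.

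Genes of TGF-beta, SRF and YAP signalling, pathways known to induce Thbs1, Tnc, Postn and the CCN genes, were compared as well. Of 14 tested, 0 passed the adjusted threshold in edgeR, beside 0.528% of all genes. At an unadjusted p-value under 0.05, 1 was higher and 1 lower, beside 14.6% of all genes in both directions together. The median log2 fold change was 0.02. DESeq2 and voom also called 0. Tgfb3 was higher (0.53, SE 0.18), Tgfbr2 was lower (-0.34, SE 0.12, or -0.22 without KO line 72), and Tgfb1 had a log2 fold change of -0.32 (SE 0.13).

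**Figure D5:**
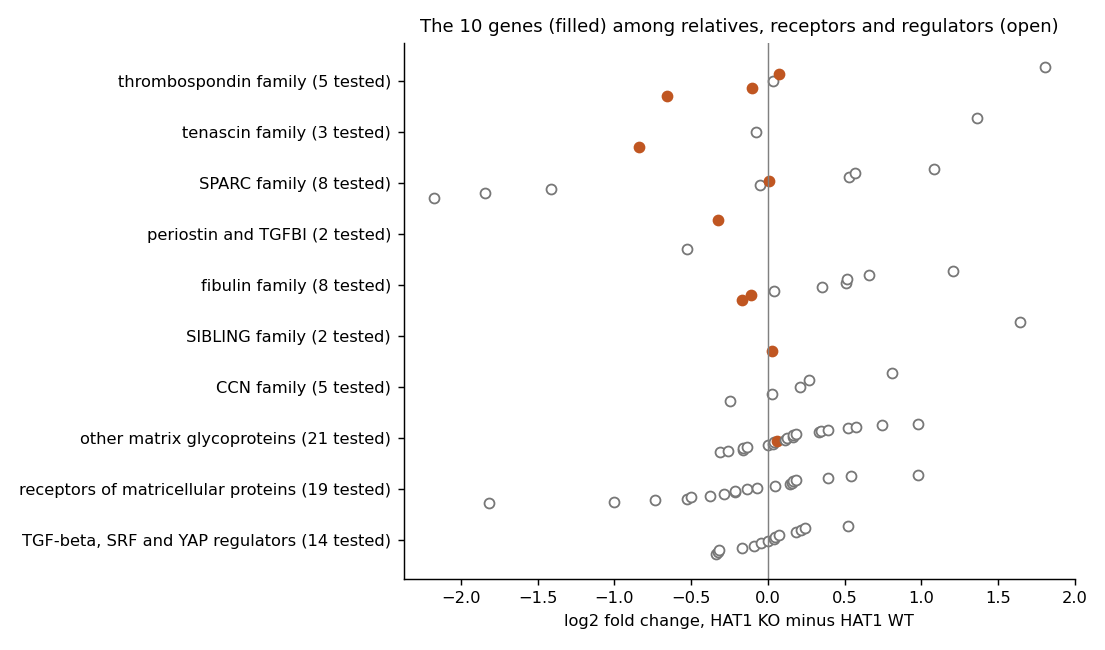
Log2 fold change, HAT1 KO minus HAT1 WT, of the tested genes of 10 lists, with the 10 chosen genes filled and relatives, receptors and regulators open, 1 circle per gene. No circle passed an adjusted p-value of 0.05 in edgeR, Thbs2 and Tnc are the filled circles farthest to the left, and the circles of the 6 other fibulins lie to the right of 0, of which 4 do so without KO line 72.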

How the data were processed

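RNA from 6 pMEF lines was sequenced after TruSeq library preparation. The authors deposited raw read counts per gene, not normalized. Beside them the deposited table held the authors' log2 fold change and log2 mean CPM, an F score, a p-value and a q-value per gene, which were not used. The submitters' processing notes name edgeR and mm10. The aligner, counter and strand setting were not given in the sources used here. Genes were matched by identifier to GENCODE M21 (GRCm38), and exon length is that of merged exons. No 2 libraries were identical.

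The members and all gene lists were chosen with earlier results of these data known. Counts were fitted in edgeR 4.0.16 (R 4.3.3) with filterByExpr, TMM scaling and a quasi-likelihood fit on genotype only, and p-values of the two-sided test were adjusted over 14773 genes (Benjamini-Hochberg, threshold 0.05). Standard errors are approximate. The study's thresholds of 1.5-fold and an unadjusted p-value under 0.05 served as a further call. Groups came from the genotype labels. Named genes were all members, Hat1, every tested gene of a list of at most 8, the 3 genes of smallest p-value in longer lists, and the 3 nearest profiles of each member. The 3 lower receptors beyond these, and Mfap4, were named after their values were seen. Log2 CPM used a prior count of 2. Alternatives were other scalings, filters, DESeq2 1.42.0, voom (limma 3.58.1), the lane as a term and leaving out each line. At these depths the spread between lines, with a common dispersion of 0.0747, limits precision.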

Additional observations from a re-analysis of the deposited data

How the results depend on the processing

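The count of genes with an adjusted p-value under 0.05, 78 in edgeR, was 871 with the DESeq2 Wald test, 267 with voom and sample quality weights, 46 with no filter and 2 with the lane in the model. It ran from 0 to 73 when 1 line was left out, and the fits with 0 genes, those without WT line 36, WT line 47 or KO line 33, had 1439, 1666 and 1859 genes at an unadjusted p-value under 0.05. With only the lines of low Y-linked counts, an alternative chosen after seeing the data, it was 0, with 1126 at the unadjusted threshold. The count of members called was 0 in edgeR and 2 in DESeq2. Members at least 1.5-fold lower numbered 2 in edgeR, 1 with voom (Tnc), 1 with the low Y-linked lines (Thbs2), and 1 to 2 without 1 line (Tnc without WT line 78, Tnc and Spp1 without KO line 72). In the main edgeR fit 4.62% of all genes met that rule. Its share over all genes is not given for the other fits, so nothing is read from these member counts. Other scalings and a minimum mean of 50 counts stayed within 1.5 times each count. The cause was not tested.

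Of 140 fold changes of members under 14 alternatives, 137 moved by less than the spread within genotypes. The other 3 were Fn1 with the low Y-linked lines (0.56), and Spp1 with voom (-1.07) and without KO line 72 (-1.28). Apart from the low Y-linked fit, each alternative used all lines or left out 1, so moves beyond that spread could hardly arise. The count of 137 is therefore no measure of stability. Of the 140, 16, in 6 members, had the other sign: 4 each for Sparc and Spp1, 3 for Thbs1, 2 each for Fn1 and Fbln1 and 1 for Thbs3. Thbs2 stayed between -0.84 and -0.52 and Tnc between -1.09 and -0.62, while Spp1 ran from -1.28 to 0.65 and Fn1 from -0.13 to 0.56. No paired analysis was possible because the genotypes share no replicate numbers. The lane, which some lines of both genotypes share, was used as a term in the model instead.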
